A study of Mus musculus with 6 samples.

Results

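Eef1a1, the gene for translation elongation factor eEF1A1, had more tested clones on the mouse cDNA arrays of this series than any other annotated gene; by printed clones, Mbp had as many. The clones were chosen by their gene symbol in the probe annotation of the series' value table, which gave 12 clones out of 36065 on the array, of which 22364 were annotated with a single gene. A clone is a cloned stretch of cDNA spotted at a fixed place on the glass. Eef1a1 had also been picked because its measured knockout over wild-type ratio stood out in these arrays, so its ratios are given as a description and carry no test.

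eEF1A is a GTP-binding protein that carries aminoacyl-tRNAs to the ribosome. It leaves the ribosome bound to GDP, and the eEF1B complex, made of the products of Eef1b2, Eef1d and Eef1g, reloads it with GTP, while eEF2 moves the ribosome along the mRNA. Mammals have another isoform, eEF1A2, encoded by Eef1a2 and found mainly in neurons and in heart and skeletal muscle, whereas eEF1A1 is made in most other cells and is one of their most abundant proteins. The Eef1a1 mRNA begins with a terminal oligopyrimidine (TOP) tract, a run of pyrimidines shared with the ribosomal protein mRNAs, through which growth signals control its translation.

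The samples were adrenal gland total RNA of PACAP -/- mice (KO) and of PACAP +/+ mice (WT), both 129XC57BL6 F2. PACAP is a neuropeptide that the splanchnic nerve releases onto chromaffin cells, which secrete catecholamines, and the series title names the question of PACAP-dependent genes in this gland. Each of the 6 arrays held 1 KO RNA labelled with Cy3 (green) and 1 WT RNA labelled with Cy5 (red). No array had the dyes exchanged, so an effect of genotype and an effect of dye cannot be told apart. Array labels read repeat 1 to repeat 6 and are silent on animals or pools, so spreads and p-values refer to these 6 arrays and may be technical in part. In tissue RNA, fewer cells of a type and less RNA per cell cannot be told apart.

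Every array had 37632 spots printed in 48 blocks, each laid down by a separate pin, and between 26027 and 31960 spots per array had a deposited quality score above 0.3. Signal over background here divides the already background-subtracted signal by the local background. Its median ranged from 5.15 to 6.79 in the KO (green) channel and from 1.11 to 4.57 in the WT (red) channel, which was weakest on arrays 4 and 2. The array's only annotated clone of Adcyap1, the gene for PACAP, had a KO signal of 129.6 to 327.0 and a WT signal of 27.5 to 162.5, and its quality exceeded 0.3 on arrays 3 and 5 only, so it gave no check of the genotype labels. Of 9 adrenal cortex markers 6 were measured, and 4 were called higher in KO after global loess and 3 after print-tip loess (loess within each block), where 16.2% and 6.77% of all clones tested were; only 1 was called without arrays 2 and 4 (global loess), and 1 of the 6 was above 0 in the authors' deposited table centred on array medians. Their summed signal, not normalized, was 50400 to 86363 in KO and 6381 to 48594.6 in WT. Of 8 adrenal medulla markers 5 were measured, and 4 were called higher in KO after global loess and 2 after print-tip loess, while 1 of the 5 was above 0 in the centred deposited table, with unnormalized sums of 16530.2 to 40083.4 in KO and 1920.4 to 17263.4 in WT. Of 8 skeletal muscle markers 3 were measured. After global loess 1 was called lower and 2 did not pass, where 14.2% of all clones tested were called lower. None of the 3 was called after print-tip loess, where 4.61% were called lower. Their sums were 3990.2 to 6290.1 in KO and 1288.9 to 4356.8 in WT. The 2 measured of 7 adipocyte markers summed to 420.4 to 1135.2 in KO and 116.7 to 267.2 in WT, with neither passing. Star and Hsd3b1, which cortical cells use to make steroids, and Th and Chga, which mark chromaffin cells, were all measured, while none of the 6 kidney markers was. The part of these cell types in the Eef1a1 values was not tested.

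The 12 clones lay in 9 of the 48 print blocks. In order of position they were AW551028 in block 1, C78484 in block 2, C78483 and AI840661 in block 10, AW552980 in block 13, AW551441 in block 19, AI836755 and AI845552 in block 21, AW556381 in block 28, AI835939 and AI843451 in block 29, and AW554606 in block 44. The title column of the scanner files named elongation factor 1 alpha 1 for 8 of them. The other 4 were titled otherwise: AW551028 and AW551441 carried names of unidentified transcripts, AW552980 that of GPI anchor attachment protein 1, and AW554606 had no title. The UniGene clusters in the same files put 5 clones in one cluster, 3 in another, 1 each in a further 3 clusters, and AW554606 in none. The cluster of AW551441 held another clone, annotated as Stub1, so the identity of these 4 clones rests on the probe annotation alone. A further clone, AU020246 in block 6, had the elongation factor 1 alpha 1 title but no annotated gene and was not counted as a member. In all, 7 clones came from the NIA clone set and 5 from the BMAP set, as their plate names show. RNA of near-identical copies may hybridise to the same clone, and the mouse genome holds Eef1a1 pseudogenes besides the Eef1a2 paralogue.

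**Figure D1:**
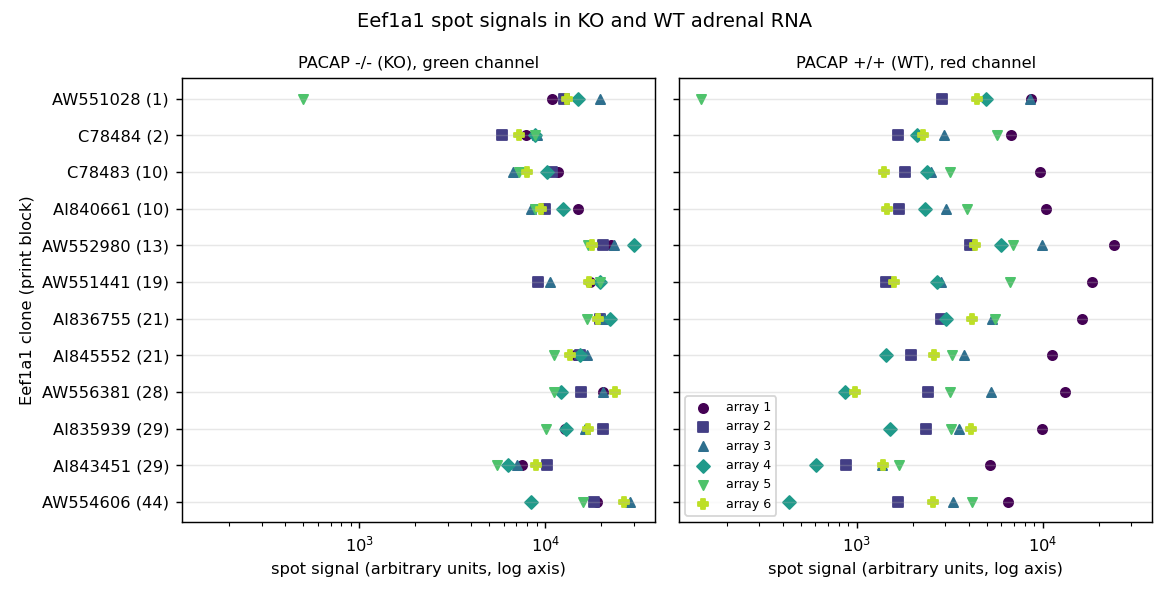
Background-subtracted spot signal (log axis, arbitrary units) of each Eef1a1 clone on each of the 6 arrays, KO (green channel) on the left and WT (red channel) on the right. KO signals of a clone mostly lie close together, WT signals spread more and are highest on array 1, and the isolated points are AW551028 on array 5, at 499.4 in KO and 144.8 in WT.

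All 12 clones were bright, between the 92.7th and the 99.4th percentile of the tested clones in mean log2 signal, and none was saturated: the highest Eef1a1 signal was 29848.5, while array maxima lay between 53322.6 and 65354.4. The brightest clone, AW552980, had a KO signal of 16995.0 at its lowest, 21470.9 at its median and 29848.5 at its highest, against WT values of 4058.8, 6444.05 and 24095.2. The dimmest, AI843451, had a KO signal between 5476.8 and 10225.1 with a median of 7275.9, against a WT signal between 605.5 and 5228.2 with a median of 1383.05. The ranges of the groups overlapped in AW552980 and not in AI843451. In 4 of the 12 clones the lowest KO signal lay above the highest WT signal, and in all 12 the median KO signal was the higher one.

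AW554606, in the highest-numbered block, had a KO signal of 8375.2 to 28712.9 against a WT signal of 431.8 to 6510.2. AW556381 had 11144.3 to 23580.8 in KO against 867.4 to 13211.9 in WT, with its highest WT value on array 1. AW551028 had 10894.7 or more in KO on 5 arrays and 499.4 on array 5. Its WT signal was 2867.9 to 8621.6 on those 5 arrays and 144.8 on array 5. There the background-subtracted WT signal was 0.728 times the local background. The quality score of that spot was 0.4, the lowest of the 72 Eef1a1 spots, and the other 71 had a quality of 1. On that array both channels of the spot were low, and its ratio after either loess was within the range of the clone's other arrays. In the deposited table centred on array medians the same spot was at 6.22, against -2.78 to -0.11 on the other 5 arrays.

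Relative to the median spot of the same array and channel, the 12 clones had a median KO signal 28.7, 30.2, 29.7, 28.4, 22.8 and 18.9 times as high on arrays 1 to 6, against a median WT signal 27.4, 12.2, 15.7, 18.2, 18.7 and 13.2 times as high. The channels were nearly level on array 1, and KO was the higher on the other 5. Before any normalization the KO signal exceeded the WT signal in 70 of the 72 spots, and the log2 ratio averaged 1.99 ± 0.94 (SD between arrays, n = 6). Much of that is shared by all clones, whose median unnormalized log2 ratio was 0.37 on array 1 and between 1.21 and 2.15 on the others.

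After global loess, which removes from each array the part of the log2 ratio that follows signal strength over the whole array, the mean over the 12 clones was 1.05 ± 0.62 (SD between 6 arrays), a 2.07-fold higher level in KO than in WT. In the authors' deposited table, centred on each array's median and used without the quality filter, the mean over the same clones was on the opposite side, at -0.39. The values that follow are again those after global loess. The ratio was above 0 in 68 of the 72 spots, and 8 clones were above 0 on every array. Clone means ran from 0.37 in C78484 to 1.97 in AW554606, with an SD between clones of 0.47. AW554606 had 0.94 at its lowest and 2.88 at its highest, so even its lowest array lay above the mean of 5 other clones, while C78484 ranged from -0.35 to 0.91. The 4 negative spots were AW552980 and AW551441 on array 1, C78484 on array 5 and AW551028 on array 6.

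**Figure D2:**
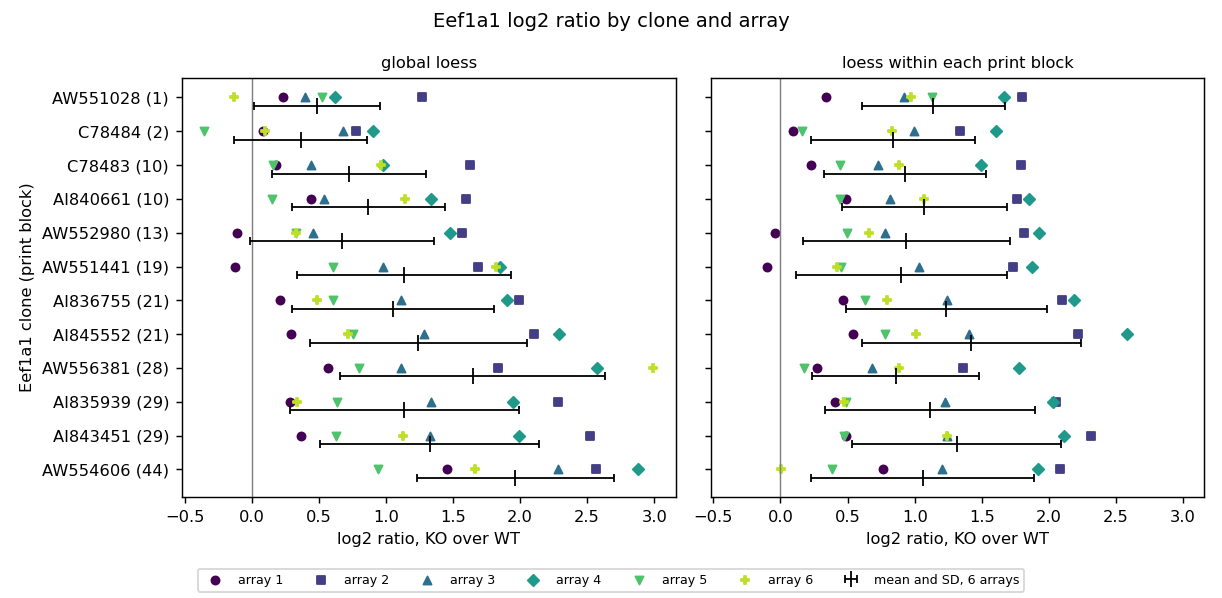
Log2 ratio (KO over WT) of each Eef1a1 clone on each array after global loess (left) and after loess within each print block (right), clones ordered by block from top to bottom; black bars are mean and SD over 6 arrays. Clone means run from 0.37 to 1.97 on the left and from 0.84 to 1.42 on the right; with the deposited table centred on array medians the overall mean is -0.39.

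The clones' ratios followed their place on the glass. After global loess, the 5 clones in blocks 1 to 13 averaged 0.62 ± 0.20 (SD over clones) and the 7 in blocks 19 to 44 averaged 1.36 ± 0.33, with no overlap: the highest of the first set was 0.87 (AI840661) and the lowest of the second 1.05 (AI836755). Across the 12 clones the correlation of ratio with block number was r = 0.95 (rho = 0.91), and with the median ratio of all clones in the same block it was r = 0.96 (rho = 0.93). These are descriptions over 12 clones that share the same 6 arrays. The blocks themselves differed, from a median of -0.60 in block 1 to 0.53 in block 48, and 46.9% of the variance of all clones' mean ratios lay between blocks. Pairs of Eef1a1 clones printed in the same block differed in their means by 0.14 (block 10), 0.19 (block 21) and 0.19 (block 29).

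Signal strength did not order the clones in the way that block number did. The correlation of the ratio with mean log2 signal was r = 0.04 (rho = 0.13) after global loess, over a span of log2 signal from 11.67 (AI843451) to 13.63 (AW552980). The dimmest of the 12 had a mean ratio of 1.33 and the brightest 0.67, while C78483, C78484 and AW551028, of almost equal signal, had 0.73, 0.37 and 0.49.

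**Figure D3:**
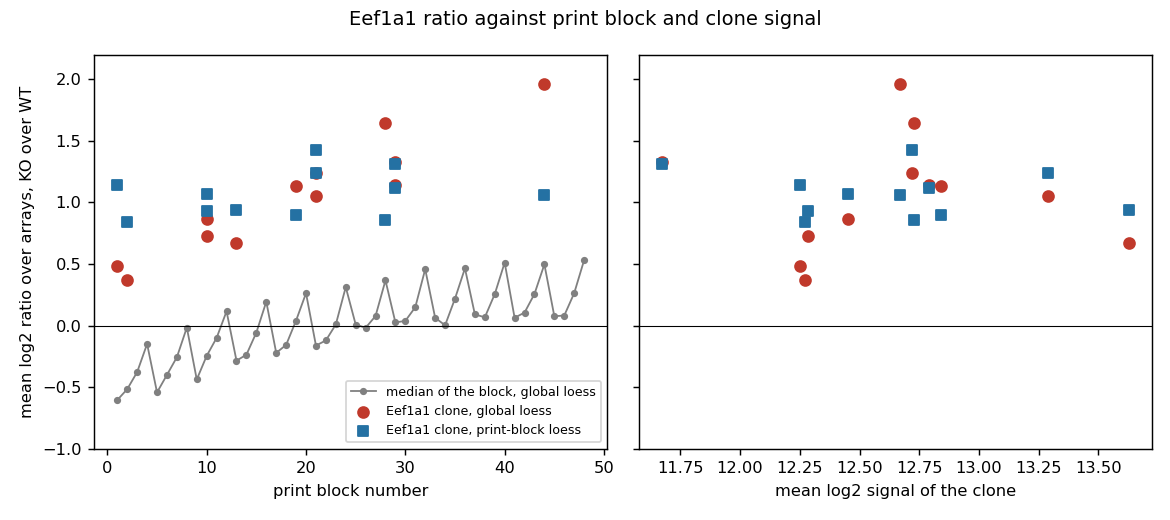
Mean log2 ratio (KO over WT, 6 arrays) of each Eef1a1 clone against print block number (left) and mean log2 signal (right), after global loess (circles) and print-block loess (squares); the grey line is the median of all clones of each block. The circles climb with block number as the grey line does, the squares lie between 0.84 and 1.42 across blocks, and neither set follows signal; the centred deposited table, not drawn, gives a mean of -0.39.

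When loess was fitted separately within each block (print-tip loess), the 12 clones drew together. Their mean was 1.07 ± 0.68 (SD between 6 arrays), 2.10-fold, and clone means lay between 0.84 (C78484) and 1.42 (AI845552), with an SD between clones of 0.19. The ratio was above 0 in 70 of 72 spots and on every array in 10 clones. AW554606 moved to 1.06 and AW556381 to 0.86, against 1.97 and 1.65 after global loess, while AW551028 moved to 1.14 and C78484 to 0.84, against 0.49 and 0.37. The clones in blocks 1 to 13 then averaged 0.98 ± 0.12 and those in blocks 19 to 44 averaged 1.13 ± 0.21, with overlapping ranges. The correlation with block number was r = 0.25, with block median r = -0.03 and with signal r = -0.16. Of the sum of squares of the 72 values, clones took 31.1% after global loess and 6.95% after print-tip loess, and arrays took 49.9% and 84.0%.

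Clones with and without the elongation factor title had similar mean ratios. The 8 titled clones averaged 1.05 ± 0.39 after global loess and 1.10 ± 0.22 after print-tip loess, and the 4 titled otherwise averaged 1.06 ± 0.66 and 1.01 ± 0.11 (SD over clones). The further titled clone AU020246 had 0.56 and 0.90. The 5 BMAP clones averaged 1.23 ± 0.14 after print-tip loess, against 0.95 ± 0.11 for the 7 NIA clones, with overlap between 1.07 (the lowest BMAP clone, AI840661) and 1.14 (the highest NIA clone, AW551028).

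Array to array, the 12 clones moved together. The mean over clones on arrays 1 to 6 was 0.32, 1.82, 1.00, 1.73, 0.48 and 0.96 after global loess, and 0.33, 1.86, 1.02, 1.92, 0.51 and 0.77 after print-tip loess. Arrays 2 and 4 gave the highest ratios and array 1 the lowest; after print-tip loess every clone had its 2 highest values on arrays 2 and 4, and the ranges over the 12 clones were 1.34 to 2.32 on array 2 and 1.49 to 2.58 on array 4, against -0.10 to 0.77 on array 1. The WT (red) channel was weakest on the same 2 arrays, with a median signal over background of 1.32 and 1.11, and strongest on array 1, with 4.57. Arrays 3, 5 and 6 had 2.00, 2.02 and 1.59, and of these Eef1a1 was highest on array 3 after either loess. The part of channel strength in the ratio was not tested. Without arrays 2 and 4 the mean was 0.69 after global loess and 0.66 after print-tip loess.

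**Figure D4:**
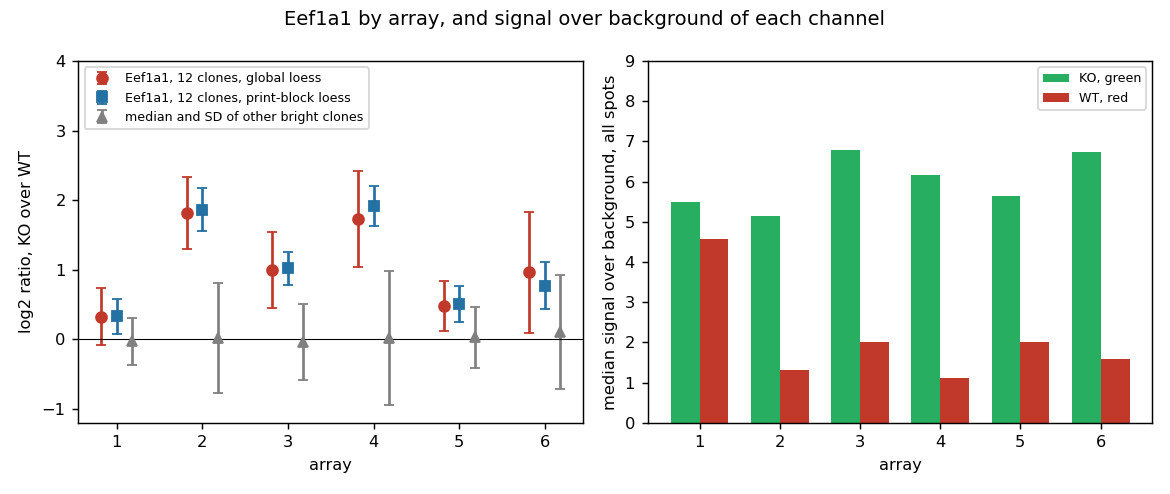
Left: mean and SD over the 12 Eef1a1 clones of the log2 ratio (KO over WT) on each array, after global loess (circles) and print-block loess (squares), with the median and SD of 2077 other clones at least as bright (triangles, global loess). Loess itself holds the median of these other clones near 0. Right: median of the background-subtracted signal over the local background, all spots, KO (green) and WT (red). Eef1a1 is highest on arrays 2 and 4, where the WT channel is weakest; centred on array medians, the deposited table gives Eef1a1 a mean of -0.39.

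Loess holds the median ratio near 0 at each signal strength. The medians of other bright clones after loess therefore cannot show whether bright clones shared the Eef1a1 level. The 2077 clones at least as bright as the dimmest Eef1a1 clone had an unnormalized median log2 ratio of 0.99, against 1.39 over all clones tested. Their median was 0.05 after global loess, with quartiles of -0.24 and 0.43, and -0.01 after print-tip loess, with quartiles of -0.11 and 0.17. The Eef1a1 mean was exceeded by 158 of them after global loess and by 76 after print-tip loess. On each array their median lay between -0.04 and 0.11 after global loess. Their SD on arrays 1 to 6 was 0.34, 0.79, 0.54, 0.96, 0.44 and 0.82.

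In the whole-array limma fit, with p-values adjusted by Benjamini-Hochberg across all 28749 clones tested and called below 0.05, 11 of the 12 Eef1a1 clones were called higher in KO and none lower, where 16.2% of all clones tested were called higher and 14.2% lower. C78484 was the clone not called. After print-tip loess all 12 were called, where 6.77% of clones were called higher and 4.61% lower. Among the 2077 other clones at least as bright as the dimmest Eef1a1 clone, 24.6% were called higher after global loess and 11.4% after print-tip loess. Without arrays 2 and 4, 7 of the 12 were called after global loess, where 6.24% of all clones tested were called higher, and 5 after print-tip loess, where 0.335% were. After print-tip loess without array 2, 3 or 4, none of the 12 was called, and only 1, 1 and 28 clones of the whole array were. Since the clones were picked on this contrast, these counts describe the choice.

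Most genes printed many times gave ratios near 0. Among the 251 other genes with at least 5 tested clones, the median gene averaged 0.14 after global loess and 0.12 after print-tip loess, with a median SD between clones of 0.34 and 0.20. After print-tip loess the SD between Eef1a1 clones was therefore typical of such genes, and 143 of the 251 had a larger one. Malat1, a nuclear long non-coding RNA, was the only one of them with a higher mean than Eef1a1 after global loess, at 1.28 over 5 clones, and after print-tip loess it had 0.81, the highest of the 251. Of the 251, Malat1, Hspa8 and Actb were nearest to Eef1a1 in mean log2 signal. Their single clones ran from 7.72 to 14.22 for Malat1, 9.02 to 12.90 for Hspa8 and 10.66 to 12.79 for Actb. Those of Eef1a1 ran from 11.67 to 13.63. After print-tip loess the Malat1 clones had ratios of 0.05 to 1.41, and 1 of the 5 was called higher. Over 7 clones each, Hspa8 averaged 0.74 after global loess and 0.54 after print-tip loess, and Actb 0.94 and 0.76. After print-tip loess 5 of the Actb clones and 0 of the Hspa8 clones were called higher. Ndrg2, the next nearest in signal, averaged -0.01 and -0.08 over 5 clones. None of the 251 had all of its clones called in one direction after print-tip loess.

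The genes with the most tested clones after Eef1a1 were Atp2a2, which encodes a calcium pump of the endoplasmic reticulum, and the myelin gene Mbp, each with 11 clones, Ttc3 with 10, and the translation initiation factor Eif5 and Purb, which encodes a nucleic acid-binding protein, with 9 each. Their means after global loess were 0.10, -0.09, 0.10, 0.07 and -0.14, and after print-tip loess 0.07, 0.08, 0.14, 0.06 and 0.14. They were dimmer than Eef1a1, with mean log2 signals of 8.42 (Purb) to 9.43 (Mbp), against 12.63 for Eef1a1.

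Likeness to the mean Eef1a1 pattern over the 6 arrays was measured as the root mean square difference in log2 ratio, over 3660 genes with at least 2 clones measured on every array. The 5 nearest genes after global loess were Akr1a1 (an aldehyde reductase; difference 0.08), Aifm1 (a mitochondrial flavoprotein; 0.14), Tpt1 (translationally controlled tumour protein; 0.19), Alas1 (the first enzyme of haem synthesis; 0.19) and Clk3 (a protein kinase; 0.20). Akr1a1 had 0.34, 1.83, 0.83, 1.69, 0.55 and 1.03 on arrays 1 to 6. After print-tip loess, the 5 nearest were Alas1 (0.20), Tpt1 (0.24), Akr1a1 (0.28), Clk3 (0.32) and Idh1 (isocitrate dehydrogenase; 0.32). All of these were highest on arrays 2 and 4, as Eef1a1 was, which follows from choosing them by likeness to its pattern. The points of each comparison are the same 6 arrays.

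After either loess, the other elongation factor genes lay closer to 0 than the mean of Eef1a1, which had been picked because its ratio stood out. In the centred deposited table their median was further from 0, at -0.67 against -0.39 for Eef1a1. For each gene the brightest clone stands for it, and values are log2 ratios of KO over WT with the limma SE and adjusted p. Eef1a2, the paralogue, had -0.12, 0.89, 0.17, 0.55, 0.30 and 0.82 on arrays 1 to 6 in its brightest clone, AI839944. Its mean after global loess was 0.44 ± 0.15 (SE, n = 6 arrays; adjusted p = 0.036), higher on 5 of 6 arrays, but 0.38 ± 0.12 with adjusted p = 0.067 after print-tip loess, and -0.66 in the centred deposited table. Another of its clones, AI836586, had 0.71 after global loess and 0.61 after print-tip loess and was called in both. The third, AI851597, had 0.38 and 0.02 and was called in neither. All 3 were dimmer than any Eef1a1 clone, with log2 signals of 7.80 to 10.11.

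Of the eEF1B subunits, Eef1g, the structural gamma subunit, had 0.04, 0.94, 0.39, 0.45, 0.16 and 0.43 on the 6 arrays. It was higher in KO after global loess (0.40 ± 0.13, adjusted p = 0.036), did not pass after print-tip loess (0.21 ± 0.09, adjusted p = 0.12), and was at -0.55 in the centred deposited table. Of its 5 tested clones 3 were called higher after global loess and none after print-tip loess, with means from 0.16 to 0.65 after global loess. Eef1b2, the GDP-GTP exchange subunit, had 0.50 ± 0.22 (adjusted p = 0.10), and its 1.95 on array 4 stood against -0.14 to 0.84 on the others. Eef1d, a further exchange subunit, had 0.07 ± 0.12 (adjusted p = 0.66), with all arrays between -0.20 and 0.21. Neither passed after print-tip loess. Over all 9 tested clones of these subunit genes the mean ratios ran from 0.0093 to 0.65 after global loess, overlapping the 0.37 to 1.97 of the Eef1a1 clones.

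Eef2, which drives translocation, had -0.06, 0.63, 0.02, 0.27, -0.04 and 0.10 on the 6 arrays in its brightest clone, AI840031. It did not pass after global loess (0.15 ± 0.13, adjusted p = 0.39), was called higher after print-tip loess (0.45 ± 0.11, adjusted p = 0.037), and was below 0 after plain median centring (-0.17) and in the centred deposited table (-1.27). Its other clone, AI835929, had 0.70 after global loess and 0.60 after print-tip loess and was called in both. Eef1e1, a scaffold protein of the tRNA synthetase complex despite its symbol, fell after global loess (-0.52 ± 0.16, n = 5 arrays, adjusted p = 0.024), did not pass after print-tip loess (-0.30 ± 0.14, adjusted p = 0.17) and was at 0.57 in the centred deposited table.

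The elongation factor list also held the kinase Eef2k and the ribosome rescue factor Hbs1l. Across the elongation factor list, all 16 genes were measured, with a median log2 ratio of 0.10 after global loess and 0.11 after print-tip loess, against 0.02 and -0.00 over all clones tested, and -0.67 in the centred deposited table. After global loess 3 were higher (Eef1a2, Eef1g and Eif5a), 1 was lower (Eef1e1) and 12 did not pass, where 30.4% of all clones were called in either direction. Eif5a, which helps ribosomes through difficult stretches, had 0.55 ± 0.18 (adjusted p = 0.033), 0.64 ± 0.20 (adjusted p = 0.059) by print-tip loess and -0.69 in the centred deposited table. After print-tip loess only Eef2 was higher and only Efl1, which acts in the maturation of the large ribosomal subunit, was lower (-0.28 ± 0.07, adjusted p = 0.042), where 11.4% of clones were called.

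**Figure D5:**
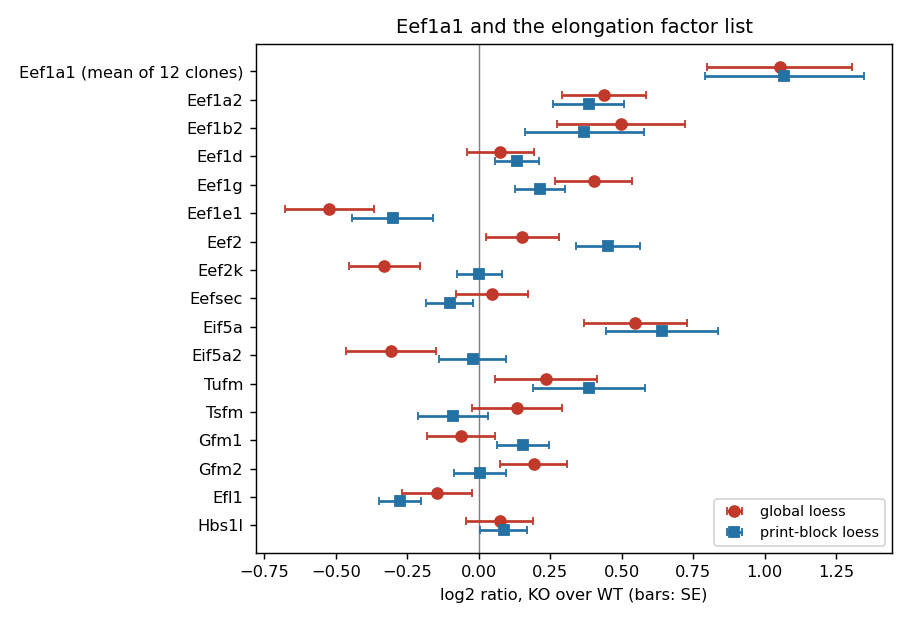
Log2 ratio (KO over WT) with SE of the mean over 12 Eef1a1 clones (top; SE from the SD between 6 arrays) and of the brightest clone of each of the 16 genes of the elongation factor list (limma SE), after global loess (circles) and print-block loess (squares). Eef1a1 lies at 1.05 and 1.07, and the other genes between -0.52 and 0.64; in the centred deposited table Eef1a1 is at -0.39 and the median of the list at -0.67.

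The list of genes for binding eEF1A or modifying elongation factors had medians near 0 after either loess. It also held Etf1, Gspt1, Pelo and Abce1, which act in translation termination or ribosome recycling. Eef1akmt4 was measured under the symbol Ece2, by a clone titled as similar to endothelin converting enzyme. Of the 18 listed, 13 were measured, 1 was called higher, none lower and 12 did not pass after global loess, where 16.2% of all clones were called higher and 14.2% lower. None of the 13 was called after print-tip loess, where 11.4% of clones were called in either direction. The medians were -0.03 and -0.11, and -0.50 in the centred deposited table. The exception was Dnajc24, a co-chaperone required for the diphthamide modification of eEF2, with 1.08 ± 0.25 (adjusted p = 0.0074) after global loess, 0.88 ± 0.31 (adjusted p = 0.082) after print-tip loess and -0.50 in the centred deposited table. Its clone was about as bright as the Eef1a1 clones, at a log2 signal of 13.31.

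The aminoacyl-tRNA synthetases charge the tRNAs that eEF1A carries. Their list also held Aimp1 and Aimp2, components of the synthetase complex rather than synthetases. Of 20 list genes measured, 4 were called higher, 4 lower and 12 did not pass after global loess, where 16.2% of all clones were called higher and 14.2% lower. After print-tip loess 2 were higher, none lower and 18 did not pass, where 6.77% and 4.61% were. The medians were -0.01 and 0.09, and -0.64 in the centred deposited table. Those called higher after global loess, Farsa, Aars1, Yars1 and Aimp2, lay in blocks 44, 48, 43 and 42, and those called lower, Wars1, Mars1, Gars1 and Farsb, in blocks 5, 5, 9 and 5. That division runs the same way as the block medians. Farsa had 0.85 ± 0.14 (adjusted p = 0.0015) after global loess and 0.17 ± 0.08 (adjusted p = 0.17) after print-tip loess, and was at -0.02 in the centred deposited table. Aars1 had 0.63 ± 0.13 (adjusted p = 0.0041) and 0.13 ± 0.12 (adjusted p = 0.46), and was at 2.21 in the centred deposited table, where it did not pass. The 2 called after print-tip loess were Aimp2, a scaffold of the synthetase complex (0.38), and the seryl-tRNA synthetase Sars1 (0.36).

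The next list held TOP mRNAs that do not encode ribosomal proteins. Of 17 measured, 3 were higher, 1 lower and 13 did not pass after global loess, where 16.2% of all clones were called higher and 14.2% lower. After print-tip loess 4 were higher, none lower and 13 did not pass, where 6.77% and 4.61% were, and none was called when array 2, 3, 4 or 6 was left out, with medians over all 6 arrays of 0.14 and 0.17, and of -0.67 in the centred deposited table. The largest called after global loess were Fau, which encodes a ubiquitin-like protein fused to a ribosomal protein (0.76 ± 0.12, adjusted p = 0.0011), and the RNA helicase Eif4a2 (0.69 ± 0.21, adjusted p = 0.023). Neither passed after print-tip loess (0.14 and 0.50), and in the centred deposited table they were at -0.48 and -0.0045. The 4 called after print-tip loess, named after their values were seen, were Tpt1 (1.01), Npm1, a nucleolar chaperone (0.96), and the initiation factor subunits Eif3k (0.49) and Eif3h (0.33).

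Among these 5 lists, that of abundant housekeeping genes had the most calls in the direction of Eef1a1. Of 20 measured, 9 were higher, 1 lower and 10 did not pass after global loess, where 16.2% of all clones were called higher and 14.2% lower. After print-tip loess 6 were higher, none lower and 14 did not pass, where 6.77% and 4.61% were; without array 2, 3 or 4 none was called, and without array 6 there were 3. The medians were 0.47 and 0.31, but -0.75 in the centred deposited table. Actb, the cytoplasmic beta actin, had 1.25 ± 0.26 (adjusted p = 0.0043) after global loess and 1.02 ± 0.25 (adjusted p = 0.035) after print-tip loess, and was at -0.32 in the centred deposited table. Tubb5, a beta tubulin, had 1.02 ± 0.14 (adjusted p = 0.00067) after global loess and 0.32 ± 0.09 (adjusted p = 0.052) after print-tip loess, and was at -0.0063 in the centred deposited table. Besides Actb, those called after print-tip loess were Fth1, B2m, Pfn1, Cfl1 and Pkm, at 0.75, 0.76, 0.53, 0.53 and 0.51. Gapdh, a single clone of similar brightness to the Eef1a1 clones (log2 signal 12.40), had 0.0081 after global loess and 0.21 after print-tip loess and passed in neither.

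The authors' deposited value table gives the direction of Eef1a1 differently according to its centring. Turned to KO over WT and left as deposited, its Eef1a1 values averaged 0.78 ± 0.50 (SD between 6 arrays), with 56 of 72 spots above 0. The median of the whole table was itself above 0 on every array, at 0.10, 1.66, 0.84, 2.60, 0.67 and 1.11 on arrays 1 to 6, against Eef1a1 means of 0.06, 1.45, 0.64, 1.17, 0.85 and 0.48. The value of 0.85 on array 5, the only one above the table's median, rests on AW551028, whose spot there had the quality of 0.4; the other 11 clones averaged 0.30. Relative to those medians Eef1a1 averaged -0.39, with 18 of 72 spots above 0 and none of the 12 clones called, and without that spot -0.49. On the whole array 9929 clones were called in that centred table, in either direction. The table subtracts the background a second time and raises values below 1 to 1. Its values were used here without the quality filter, so its medians include such raised spots. Of all WT (red) spots, 8.5% on array 1 and up to 46.0% on array 4 had an already background-subtracted signal smaller than their own background. For spots with quality above 0.3, the same second subtraction followed by global loess gave a mean of 1.08. With the same filter, plain median centring of the deposited intensities, without a second subtraction, gave 0.62, with 56 of 72 spots above 0.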

How the data were processed

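RNA of PACAP -/- (Cy3) and PACAP +/+ (Cy5) adrenal glands was compared on 6 two-colour cDNA arrays. Per the series design text, the authors subtracted background, normalized, and used ratios with a quality above 0.3. The deposited red and green intensity columns were already background-subtracted, as empty positions had a median of 1.0. The deposited quality score runs from 0 to 1, and the deposited calibrated ratio is red over green divided by a constant per array (0.220 to 0.783). The authors' value table holds log2 ratios after a second subtraction, and 99.8% of its rows were linked to a spot by value (within 0.002), which gave the clones' genes. Symbols were updated through RefSeq's GRCm38.p6 gene table. A genome build, and versions of the authors' software, are not given in the sources used here; no coordinates or clone sequences are printed.

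Log2(green/red), KO over WT, was normalized by global loess for spots with quality above 0.3, clones were averaged, and those with at least 4 arrays (28749) were tested with limma 3.58.1 in R 4.3.3 (lmFit, eBayes; Benjamini-Hochberg, 0.05), after the procedure was tested on simulated data. Of a list gene, the brightest clone was used. Named are every Eef1a1 clone, Eef1a2, Eef1b2, Eef1d, Eef1g, Eef1e1 and Eef2, the 2 largest calls per list (or the smallest p), the 5 nearest patterns and the 5 genes with most other clones; other names were added after their values were seen. Members and lists were chosen with earlier results of these data known. The number of arrays limits the precision.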

Additional observations from a re-analysis of the deposited data

Results flagged for a closer look

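Among 66 sets of 6 arrays examined, 2 had an array far from the rest by Dixon's criterion, where chance gives about 1 in 20. The KO signal of Eef1a1 clone AW551028 was 499.4 on array 5 and 10894.7 or more on the other 5 arrays; the WT signal of that spot was 144.8, and its quality score was 0.4. The Fau log2 ratio after print-tip loess was -0.47 on array 6 and lay between 0.21 and 0.33 on arrays 1 to 5, while after global loess it was 0.86 on array 6, within its range on the others.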

How the results depend on the processing

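The Eef1a1 mean of 1.05 stayed above 0 under the other normalizations, filters, omissions of arrays and choices of clones run, except that the deposited table centred on array medians gave -0.39, and -0.49 without the spot of quality 0.4 (AW551028, array 5; chosen after seeing the data). Leaving out each array in turn gave 0.90 to 1.20 after global loess and 0.90 to 1.22 after print-tip loess, the print-tip omissions being chosen after seeing the data, as were the clone selections by title and the deposited table without centring. Of 252 values for single clones under 21 settings, 241 were above 0. Those below 0 were C78484 after median centring (-0.035) and, in the centred deposited table, C78484 (-1.13), AW552980 (-0.99), C78483 (-0.79), AI840661 (-0.67), AI836755 (-0.56), AW551441 (-0.42), AI835939 (-0.41), AI845552 (-0.30), AI843451 (-0.044) and AW551028 (-0.0070, and -1.25 without array 5). The centred deposited table also turned Eif5a (-0.69), Dnajc24 (-0.50), Farsa (-0.023), Fau (-0.48), Eif4a2 (-0.0045), Actb (-0.32), Tubb5 (-0.0063), Eef1a2 (-0.66), Eef1d (-0.70), Eef1g (-0.55), Eef2 (-1.27) and Eef1e1 (0.57). Eef2 was at -0.17 after median centring and Eef1b2 at -0.012 by print-tip loess without arrays 2 and 4. The cause was not tested.

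Of the 8744 clones called on the whole array, the count was 3271 after print-tip loess, 2383 after a second background subtraction, 2243 without arrays 2 and 4, and 93 by print-tip loess without those; leaving out 1 array gave 4491 to 8673 after global loess and, without arrays 1 to 6 in turn, 3779, 1, 1, 28, 2734 and 667 after print-tip loess. In the centred deposited table the whole-array count was 9929. The count of Eef1a1 clones called higher, 11, became 7 after a second subtraction, 0 in the centred deposited table, 7 without arrays 2 and 4, and 5 after print-tip loess without them, with 9 to 11 and 0 to 12 when 1 array was left out. Genes of the elongation factor list called (4) became 2 after print-tip loess, 0 after a second subtraction, 2 in the centred deposited table, 0 without the quality filter and 0 without arrays 2 and 4 by either loess (0 to 5 and 0 to 2 leaving out 1 array). Binding and modifying genes called (1) became 0 after print-tip loess, 2 after median centring, 0 after a second subtraction, 2 in the centred deposited table and 0 without arrays 2 and 4 by either loess (1 to 2, and 0 throughout, leaving out 1 array). Genes of the synthetase list called (8) became 2 after print-tip loess, 2 after a second subtraction, 2 in the centred deposited table, and 1 and 0 without arrays 2 and 4 (4 to 10 and 0 to 3). TOP mRNAs called (4) became 2 after a second subtraction, 0 in the centred deposited table, and 2 and 0 without arrays 2 and 4 (2 to 7 and 0 to 3). Abundant genes called (10) became 6 after print-tip loess, 3 after a second subtraction, 2 in the centred deposited table, and 4 and 0 without arrays 2 and 4 (7 to 12 and 0 to 6). Each array holds a KO and a WT RNA and the tested value is their ratio, so the test was already paired by array. Dim WT signal limits arrays 2 and 4 most.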
